A study of Bos taurus with 24 samples.

Results

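The part of the study described here is the breed by lipopolysaccharide (LPS) interaction at 8 h, that is, the change in expression from hour 0 to hour 8 in Holstein dermal fibroblasts minus the same change in Angus dermal fibroblasts. Fibroblasts, the connective tissue cells of skin, had been grown from shoulder biopsies of heifers of the same age, 4 Holstein (a dairy breed) and 4 Angus (a beef breed), and frozen at the third passage. Each culture stands for 1 animal, and it was sequenced under control conditions (0 h) and 8 h after addition of 100 ng/ml of ultra-pure LPS from Escherichia coli O111:B4. Lysates of replicate wells were pooled, so a sample is 1 animal at 1 time. The animal number in the sample title paired the hours within a breed, which left 16 of the 24 samples of the series. No untreated culture was sampled at 8 h, so the change holds any effect of 8 h in culture as well as that of LPS. Members were all rows of the count tables with a gene symbol, 27550 of 59846 rows. Of these, 13498 reached 1 CPM (counts scaled to library size) or more in at least 4 of the 16 samples and were tested, and 14052 were not.

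LPS, the endotoxin of Gram-negative bacteria, is sensed by TLR4 together with its co-receptors. One arm of TLR4 signalling runs through MYD88 to NF-kB and induces chemokines, cytokines and the inhibitors that switch NF-kB off again. The other arm runs through TICAM1 to interferon regulatory factors and induces type I interferon, which then acts back on the cells and raises a large set of interferon-stimulated genes some hours later. Dermal fibroblasts respond to LPS in this way and recruit neutrophils and monocytes through the chemokines that they secrete.

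Libraries held 51014538 to 104406293 counts each, so that 3 counts, taken as the smallest detectable level, stood for 0.0287 to 0.0588 CPM. All 10 fibroblast markers were expressed, at a summed 38420 to 129100 CPM. Of the markers of other cells of skin, 6 of 8 of leukocytes (PTPRC and CD3E included), 5 of 6 of melanocytes, 4 of 8 of keratinocytes (KRT1 and CDH1 included) and 3 of 6 of endothelium (CDH5 included) stayed under 1 CPM in all 16 samples. The summed level was 2.78 to 6.301 CPM for leukocyte, 1.71 to 3.73 CPM for melanocyte and 2.10 to 5.34 CPM for endothelial markers. Of 5 smooth muscle and pericyte markers, DES alone stayed under 1 CPM, and their sum was 403 to 557 CPM. The summed keratinocyte markers ranged from 1.89 to 16.3 CPM in Holstein samples and from 1.54 to 2.07 CPM in Angus samples, and the part of any of these markers in the results was not tested. In 3 of the 0 h libraries (Angus animal 4 and Holstein animals 2 and 4) the collagen gene COL1A1 had 66.2 to 67.1 covered bases per count, whereas the other 13 libraries had 112 to 119. These animals were kept, and values without them are given for the counts of calls and for the chemokine, NF-kB, interferon-stimulated and class I lists. In these bulk cultures, more RNA per cell and more responding cells cannot be told apart.

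Few single genes passed the test, and nearly all of them pointed the same way. A gene was past the threshold when its false discovery rate (FDR) was under 0.05, its change differed between the breeds by at least 2-fold (1 on the log2 scale) and its mean level was above 1 CPM. Of the 13498 genes tested, 13 were past it (0.0963%), and of all 21620 rows tested, those without a symbol included, 20 were (0.0925%). The change was more positive in Holstein for 12 of them (0.0889%) and in Angus for 1, FIBP (0.00741%). In all 13, every animal of one breed changed more than every animal of the other. The genes were chosen by a test of these same changes, which favours such separation, so it is not separate support. Over all genes, the breeds were without overlap for 4.06% in the Holstein direction and 3.79% in the Angus direction. With the FDR limit alone, 43 genes passed (0.319%), 32 larger in Holstein (0.237%) and 11 in Angus (0.0815%), and 1979 (14.7%) had an unadjusted P under 0.05. The median difference over all genes was close to 0 (-0.02), and 6018 of the 13493 genes whose difference could be estimated (44.6%) had a value above 0. Scaled by total counts only, this median was 0.009, so the share above 0 depends on the scaling. The 44.6% used below holds for the main fit.

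The calls rested on the pairing of the animals and, to an unequal extent, on single animals, whereas the signs of the 13 differences did not. Without the animal as a block, no gene was past the threshold by the quasi-likelihood F test, which still gave 462 genes an unadjusted P under 0.05, and 15 were by the likelihood-ratio test, 8 of them among the 13. No gene was past it when Angus animal 1, Angus animal 4 or Holstein animal 4 was left out, with 1415, 2249 and 1355 genes at an unadjusted P under 0.05. There were 2 without Angus animal 2 (0 of the 13), 1 without Holstein animal 1 (1 of the 13), 11 without Holstein animal 2 (7), 10 without Holstein animal 3 (5) and 64 without Angus animal 3 (12). Without the 3 animals with the other COL1A1 counting there were 0, with 864 at an unadjusted P under 0.05. The difference of each of the 13 genes kept its sign in all 20 alternative fits, at 0.694 to 1.18 times its value. The fits share samples and the genes were chosen for large differences, which favours kept signs.

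**Figure D1:**
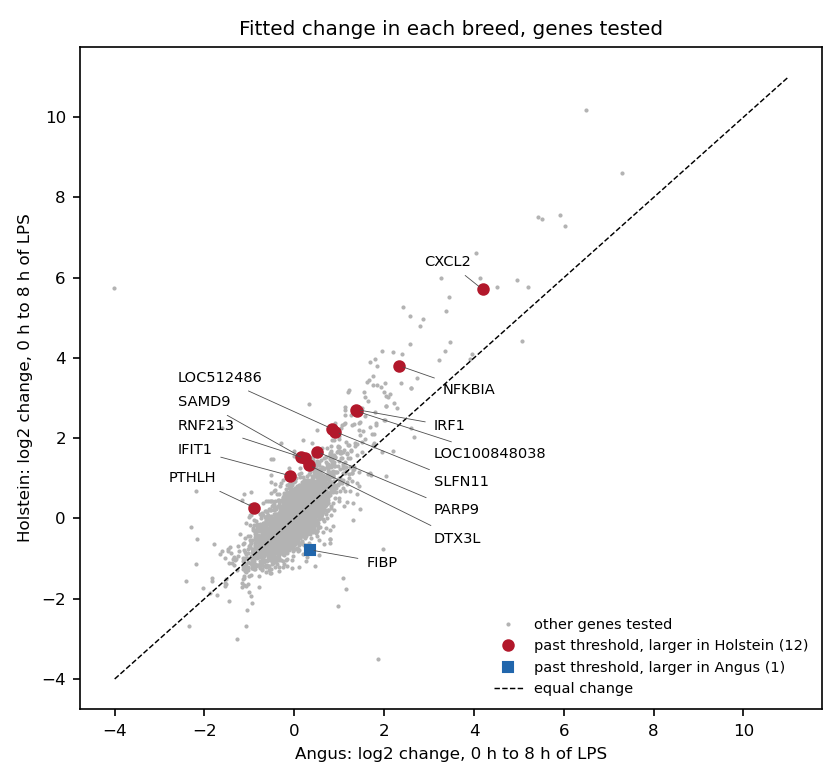
Fitted log2 change from 0 h to 8 h in Angus (horizontal) and in Holstein (vertical), 1 point per gene whose difference could be estimated. The 12 genes past the threshold with the larger change in Holstein (red circles) lie above the dashed line of equal change, and FIBP (blue square) lies below it.

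The NF-kB inhibitor NFKBIA (chromosome 21, 46065546 to 46068942 on the bovine build UMD v3.1) encodes I-kappa-B-alpha, which holds NF-kB in the cytoplasm and is itself induced by NF-kB. In Holstein animals 1 to 4 it stood at 5.52, 5.73, 6.06 and 5.63 CPM at 0 h and at 75.4, 98.7, 70.6 and 79.5 CPM at 8 h. In Angus animals 1 to 4 it went from 5.13, 5.14, 6.42 and 8.36 CPM to 34.1, 27.6, 40.7 and 24.7 CPM. The breeds thus overlapped at 0 h, and at 8 h the lowest Holstein animal was above the highest Angus animal. On the log2 scale Holstein changed by 3.81 and Angus by 2.34, a difference of 1.47 (standard error 0.23, FDR = 0.0414).

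CXCL2 (chromosome 6, 90695494 to 90824841), a chemokine that attracts neutrophils, had the largest difference among the genes past the threshold. It rose from 1.95, 1.83, 1.42 and 1.96 CPM to 88.0, 109, 72.1 and 108 CPM in Holstein, and the Angus animals rose from 2.87, 3.72, 3.44 and 1.71 CPM to 65.7, 46.4, 87.3 and 25.9 CPM. At 0 h all but Angus animal 4 were above the Holstein range, and at 8 h Angus animal 3 was within it. The log2 changes of the breeds, 5.71 and 4.19, gave a difference of 1.51 (standard error 0.22, FDR = 0.035). This row spans 129348 bases and overlaps LOC100847175 and an interval without a symbol. Over both breeds it had 256 to 349 covered bases per count at 0 h and 151 to 199 at 8 h. What the row counts may therefore differ between the hours, which was not tested. Computed on covered bases in place of counts, the difference of the mean changes was 1.48, against 1.497 on counts.

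IRF1 (chromosome 7, 23235653 to 23243672) is a transcription factor of interferon and inflammatory responses. Its level was 2.85, 3.14, 3.41 and 2.92 CPM at 0 h and 17.1, 26.8, 18.1 and 20.2 CPM at 8 h in Holstein. In Angus it was 6.00, 4.04, 4.45 and 4.64 CPM at 0 h and 17.0, 11.8, 14.03 and 8.09 CPM at 8 h. All Holstein animals were below all Angus animals at 0 h and above them at 8 h. The difference of the log2 changes, 2.71 and 1.38, was 1.33 (standard error 0.20, FDR = 0.0376). LOC100848038, on the opposite strand, overlaps IRF1 and can share its counts. Its difference of 1.29 (standard error 0.20, FDR = 0.0404) is therefore not a separate observation.

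**Figure D2:**
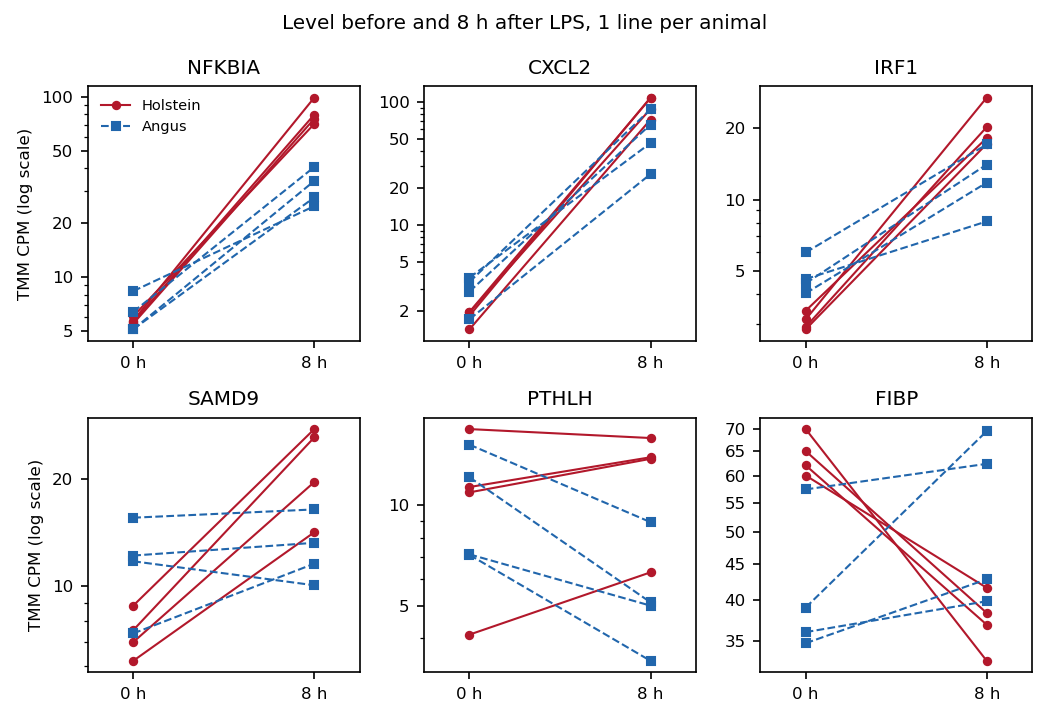
Level of 6 of the 13 genes at 0 h and at 8 h of LPS, in TMM-scaled CPM on a log axis, with 1 line per animal (Holstein solid red, Angus dashed blue, 4 each). NFKBIA ends at 70.6 to 98.7 CPM in Holstein and 24.7 to 40.7 CPM in Angus, and the lines of FIBP run in opposite directions.

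Interferon-stimulated genes made up another group of calls, and every list member with an estimate had the more positive change in Holstein. SAMD9 (chromosome 4, 10302238 to 10321358), an interferon-induced factor that restricts poxviruses, went from 6.98, 6.19, 7.54 and 8.82 CPM to 19.6, 14.2, 26.1 and 27.5 CPM in Holstein. In Angus it went from 11.7, 12.2, 7.38 and 15.5 CPM to 10.1, 13.2, 11.6 and 16.4 CPM. The level at 8 h was more than that at 0 h in every Holstein animal, and below it in Angus animal 1. The log2 changes were 1.53 for Holstein and 0.15 for Angus (FDR = 0.412 for the latter), and the difference was 1.38 (standard error 0.18, FDR = 0.03).

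IFIT1 (chromosome 26, 11104065 to 11110099), which binds viral RNA that lacks a proper cap, stood higher in Angus at 0 h. It went from 63.4, 62.7, 68.3 and 66.4 CPM to 137, 85.1, 165 and 179 CPM in Holstein, whereas Angus went from 90.6, 74.9, 80.2 and 92.2 CPM to 75.9, 70.8, 91.2 and 79.4 CPM. Holstein animal 2 had the smallest change of its breed, and the 8 h level was below the 0 h level in all Angus animals but animal 3. The log2 changes were 1.06 and -0.09, with a difference of 1.16 (standard error 0.19, FDR = 0.0415).

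PARP9 (chromosome 1, 67559264 to 67589062), an ADP-ribosyltransferase family member, and DTX3L (chromosome 1, 67588920 to 67597019), the ubiquitin ligase that is its partner, overlap at their ends on opposite strands. PARP9 rose from 5.64 to 6.53 CPM at 0 h to 14.4 to 23.2 CPM at 8 h in Holstein, and from 5.76 to 7.69 CPM to 7.15 to 14.1 CPM in Angus. The differences were 1.16 (standard error 0.19, FDR = 0.0415) for PARP9 and 1.01 (standard error 0.13, FDR = 0.03) for DTX3L. DTX3L was the gene just inside the limit on fold, and NR1D1 (-0.94), UBA7 (0.93) and LIPG (0.91) lay just outside it.

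LOC512486 (chromosome 3, 54306891 to 54323003) is listed by its gene ID as GBP1, a guanylate-binding protein that interferon induces, in the RefSeq gene table of another build (ARS-UCD2.0). It rose from 2.12, 1.78, 3.43 and 2.33 CPM to 8.23, 8.20, 16.5 and 13.4 CPM in Holstein, whereas Angus went from 5.01, 2.87, 3.23 and 4.31 CPM to 8.67, 5.00, 7.27 and 6.52 CPM. The levels of the breeds overlapped at each hour, while the changes did not. The difference of 1.40 (standard error 0.15, FDR = 0.0191) had the lowest FDR of the 13 genes. The row overlaps GBP6 on the opposite strand, for which the difference was 0.55 (standard error 0.13, FDR = 0.12), and guanylate-binding proteins are a multigene family, so counts between them are uncertain.

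Of the 51 interferon-stimulated genes listed, 45 had a row and 39 were tested. The change was larger in Holstein for all 38 whose difference could be estimated, by 0.16 to 2.84, with a median of 0.97 against -0.02 over all genes. The difference was 1 or more for 19 of them, 4 were past the threshold (SAMD9, IFIT1, PARP9 and DTX3L), and 17 of the 39 were without overlap of the breeds. A difference of 1 or more was found for 118 of all 13493 genes (0.875%). Of all genes, 44.6% had a difference above 0. In the Holstein direction, 0.0889% were past the threshold and 4.06% were without overlap. Members that reached 1 CPM in few samples, such as MX2 in the 4 Holstein samples at 8 h alone, passed the filter through the group where they were high. Among the 32 members with 1 CPM or more in at least 8 samples, all 32 differences were above 0, the median was 0.80 and 15 were without overlap. A further 4 had an FDR under 0.05 at a smaller fold. These were UBA7, the enzyme that activates ISG15 for conjugation (0.93, standard error 0.15, FDR = 0.0423), the ADP-ribosyltransferase PARP14 (0.72, 0.09, FDR = 0.03), the DNA sensor IFI16 (0.64, 0.08, FDR = 0.03) and PARP12 (0.57, 0.09, FDR = 0.0423).

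Within the breeds, all 38 rose in Holstein and 26 in Angus at an FDR under 0.05, against 16.4% and 14.3% of all genes. The median log2 change over the list was 1.35, 0.97, 1.704 and 1.55 in Holstein animals 1 to 4 and 0.38, 0.53, 0.66 and 0.23 in Angus animals 1 to 4. The lowest Holstein animal (animal 2) was thus above the highest Angus animal (animal 3). The breeds differed by a median of 0.04 at 0 h and of 1.01 at 8 h on the log2 scale, Holstein minus Angus. Without the 3 animals with the other COL1A1 counting, 34 of 34 differences were above 0 with a median of 0.95, but none was past the threshold and none had an FDR under 0.05. When a single animal was left out, 36 of 37 to 38 of 38 were above 0. Without Angus animal 1, 2 or 4 or Holstein animal 1 or 4, none was past the threshold or had an FDR under 0.05. Past the threshold were 9 without Angus animal 3, 6 without Holstein animal 2 and 1 without Holstein animal 3. Members of this list are co-regulated and come from the same 16 libraries, so they are not independent observations.

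**Figure D3:**
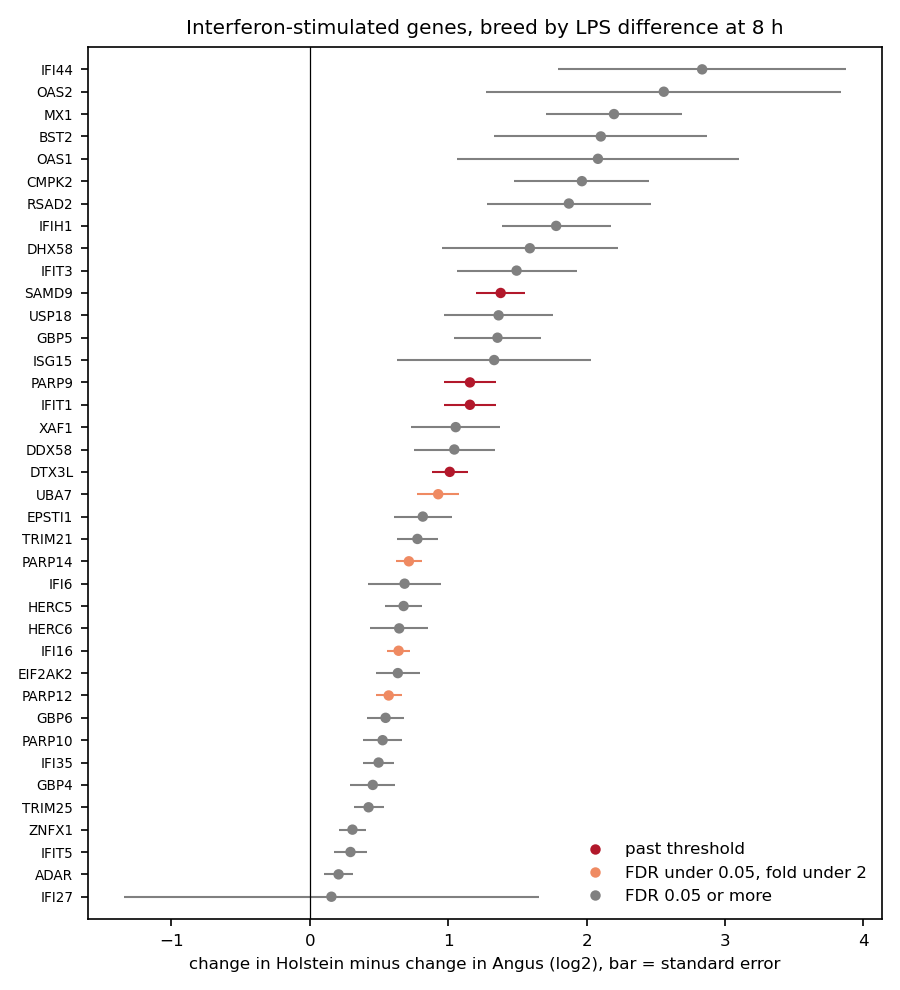
Difference of the log2 changes from 0 h to 8 h (Holstein minus Angus, horizontal, with the standard error as a bar) for the 38 interferon-stimulated genes with an estimate, 1 per line. All 38 points lie to the right of 0, at 0.16 to 2.84, and the largest differences have wide bars and did not pass the FDR limit.

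Members that were nearly silent at 0 h differed widely in level at 8 h, but the size of their change was not estimated or had a wide error. MX2, a dynamin-like antiviral GTPase, was at 0 to 0.0375 CPM in all 8 cultures at 0 h. At 8 h it reached 6.16, 3.29, 5.29 and 7.41 CPM in Holstein, against 0.763, 0.372, 0.334 and 0.0999 CPM in Angus. The test of the difference gave an FDR of 0.0912 for MX2, and its size was not estimated since a group held 3 counts or fewer, and its row overlaps FAM3B on the opposite strand. ISG15, a ubiquitin-like modifier, went from 0.0197 to 0.0684 CPM in the 8 cultures to 25.6, 3.55, 22.0 and 26.3 CPM in Holstein, against 3.03, 3.07, 14.6 and 0.842 CPM in Angus. Holstein animal 2 and Angus animal 3 lay apart from the rest of their breeds, and the difference of 1.33 (standard error 0.70) had an FDR of 0.432.

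The remaining calls were 2 genes with a known interferon response that the list did not hold, a hormone gene and FIBP. RNF213 (chromosome 19, 52738338 to 52979857), a giant ubiquitin ligase, went from 50.4, 60.3, 48.5 and 53.2 CPM to 126, 145, 157 and 175 CPM in Holstein. In Angus it went from 45.4, 41.0, 51.1 and 39.0 CPM to 48.8, 44.5, 95.1 and 34.2 CPM. Angus animal 3 was the only Angus animal that rose by more than 0.12 on the log2 scale, with 0.90. The difference was 1.26 (standard error 0.21, FDR = 0.0415), and without Angus animal 3 it was larger, at 1.49.

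SLFN11 (chromosome 19, 15129226 to 15141382), a Schlafen family protein that blocks stressed replication forks, rose from 4.32, 3.47, 3.94 and 3.74 CPM to 17.6, 20.1, 14.7 and 17.3 CPM in Holstein. In Angus it rose from 9.01, 7.38, 4.204 and 8.28 CPM to 14.5, 15.8, 9.88 and 12.99 CPM. The log2 changes of 2.16 and 0.91 differed by 1.253 (standard error 0.17, FDR = 0.03).

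PTHLH (chromosome 5, 82246832 to 82258858), which encodes parathyroid hormone-related protein, was the call that rested on a fall in Angus. It fell from 7.11, 15.2, 12.1 and 7.13 CPM to 3.43, 8.90, 5.13 and 5.01 CPM in Angus. In Holstein it stood at 10.9, 11.3, 16.9 and 4.10 CPM at 0 h and at 13.8, 13.9, 15.9 and 6.302 CPM at 8 h, a log2 change of 0.27 (FDR = 0.122). Levels of the breeds overlapped at both hours, whereas the paired changes did not. The difference was 1.17 (standard error 0.18, FDR = 0.0376).

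FIBP (chromosome 29, 44665294 to 44669337), which encodes a protein that binds acidic fibroblast growth factor, was the call in the Angus direction. It fell from 69.9, 60.1, 62.1 and 65.05 CPM to 32.8, 41.7, 36.9 and 38.4 CPM in Holstein and went from 34.8, 57.4, 39.1 and 36.1 CPM to 42.8, 62.4, 69.4 and 39.9 CPM in Angus. The log2 changes were -0.78 and 0.35, a difference of -1.13 (standard error 0.16, FDR = 0.035). The level went together with the covered bases per count of the row. The 7 libraries with 58.6 to 59.9 covered bases per count (all 4 Holstein at 0 h, Angus animal 2 at both hours and Angus animal 3 at 8 h) had 57.4 to 69.9 CPM, and the other 9, with 68.3 to 78.4, had 32.8 to 42.8 CPM. On covered bases, the difference of the mean changes was -0.73, against -1.13 on counts, still without overlap of the breeds. The part of this in the call was not tested further.

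**Figure D4:**
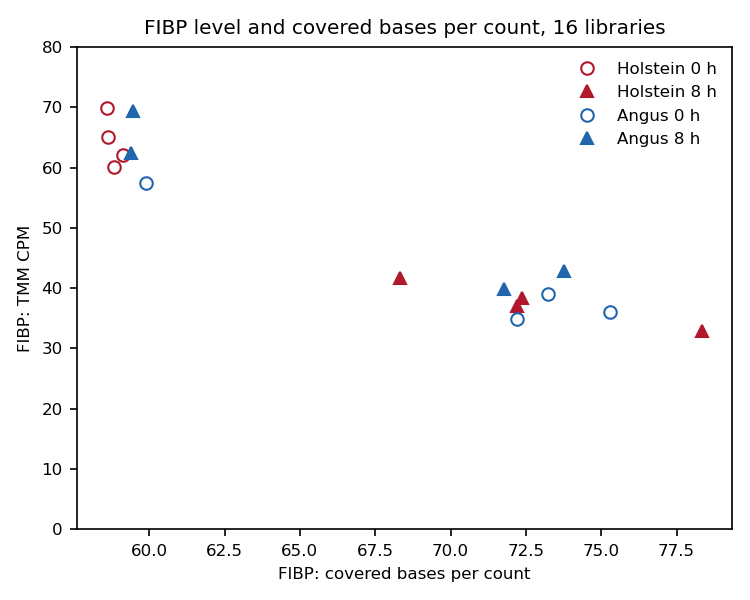
FIBP in the 16 libraries, with covered bases per count on the horizontal axis and TMM-scaled CPM on the vertical axis (open circles 0 h, filled triangles 8 h, Holstein red, Angus blue). The libraries form 2 sets, 7 at 57.4 to 69.9 CPM and 9 at 32.8 to 42.8 CPM.

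Of the 13 genes, 11 rose in Holstein and 9 in Angus at an FDR under 0.05, FIBP being among the latter. SAMD9, RNF213 and IFIT1 had no change past that limit in Angus. For 11 of the 12 genes with the larger change in Holstein, the mean log2 level was lower in Holstein than in Angus at 0 h, and it was higher in Holstein at 8 h for all 12. RNF213 was the exception at 0 h. The difference is made of both ends, and a lower start makes a given rise larger on the log scale. The breeds were further apart at 8 h than at 0 h for 11 of the 13 genes. The genes were chosen by the breed difference at 8 h minus that at 0 h. That choice favours all these counts, so they are not a separate result. Among the 12, the mean log2 levels at 0 h differed little for PTHLH (-0.03), PARP9 (-0.06) and NFKBIA (-0.10), and most for SLFN11 (-0.83).

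**Figure D5:**
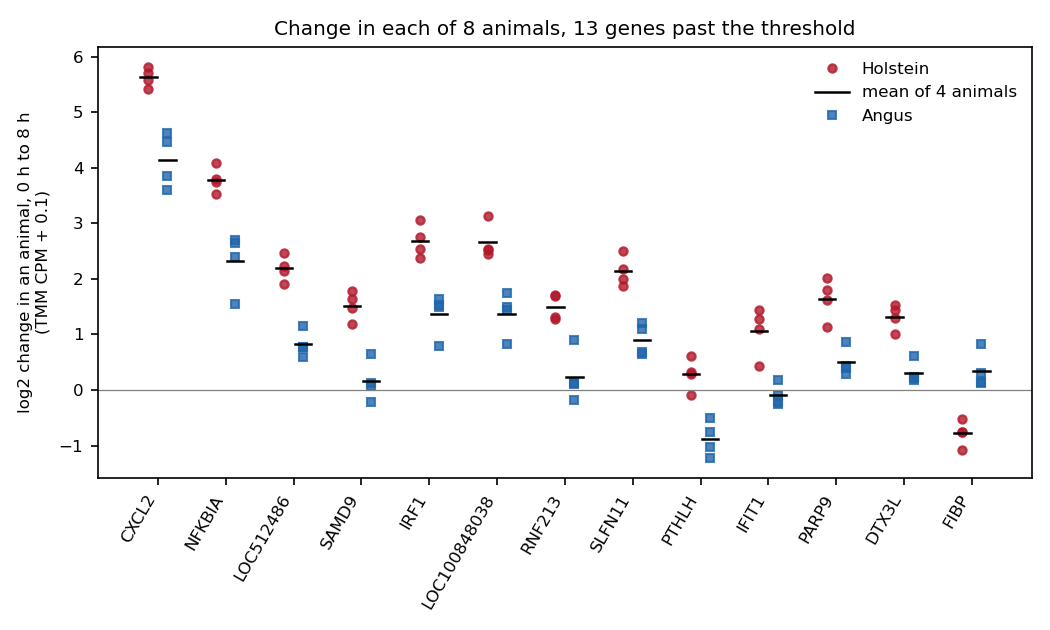
Log2 change from 0 h to 8 h in each of the 8 animals (Holstein red circles, Angus blue squares, pseudocount 0.1 CPM) with the mean of 4 animals as a bar, for the 13 genes past the threshold. The breeds do not overlap for any of the 13, and the Angus animals are above the Holstein animals for FIBP.

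IL8, a neutrophil chemokine, had a larger difference than any of the 13 genes but an FDR just over the limit. It was at 0.0920, 0.0754, 0.0562 and 0.0684 CPM at 0 h and at 50.7, 127, 75.8 and 93.8 CPM at 8 h in Holstein. In Angus it went from 0.125, 0.246, 0.212 and 0.177 CPM to 20.1, 10.2, 39.2 and 6.67 CPM. Every Holstein animal was below every Angus animal at 0 h and above every one at 8 h, although the levels at 0 h rested on few counts. The difference was 3.67 (standard error 0.65, FDR = 0.0566), and over 20 alternative fits it ranged from 2.97 to 4.23.

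Some other chemokines pointed the same way without passing the test. CCL2, induced in both breeds (log2 changes of 3.98 and 3.92), had a difference near 0 (0.06, standard error 0.42, FDR = 0.964). CXCL12 had one below 0 (-0.20, 0.18, FDR = 0.651). CCL5, which attracts T cells and monocytes, rose from 0.353, 0.287, 0.505 and 0.752 CPM to 73.0, 98.8, 48.4 and 129 CPM in Holstein. In Angus it rose from 0.0625, 0.726, 0.145 and 0.246 CPM to 6.36, 17.3, 34.3 and 3.06 CPM. The Holstein levels at 8 h were all above the Angus levels, but the change of Angus animal 3 was within the Holstein range, and the difference of 1.93 (standard error 0.75) had an FDR of 0.301. CXCL6, another neutrophil chemokine, differed by 0.99 (standard error 0.25, FDR = 0.131) and CXCL16 by 0.39 (0.12, FDR = 0.202), both without overlap of the breeds.

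CCL20 and the membrane-bound chemokine CX3CL1 had too few counts at 0 h for a change to be estimated. CCL20 had no count at 0 h in any culture and reached 9.73, 17.2, 3.25 and 5.74 CPM in Holstein against 0.530, 0.523, 3.06 and 0.0143 CPM in Angus. CX3CL1 reached 1.03, 6.59, 1.87 and 3.24 CPM in Holstein, against 0.168, 0.0963, 0.560 and 0.0143 CPM in Angus. In both, the lowest Holstein animal was above the highest Angus animal at 8 h. The test of the difference gave an FDR of 0.339 for CX3CL1. For CCL20, without a count at 0 h, it could not decide. Of the 10 chemokines tested, 7 of the 8 with an estimate had a difference above 0 (median 0.79), against 44.6% of all genes. In the Holstein direction, 6 of 10 were without overlap (4.06% of all genes) and 1, CXCL2, was past the threshold (0.0889%). CX3CL1 and CCL20, counted among the 6, passed the filter through few samples, mostly Holstein samples at 8 h, and without these it was 4 of 8. The median was 0.51 without the 3 animals with the other COL1A1 counting, with 7 of 8 above 0 and none past the threshold. The median log2 change over the 8 was 4.40 to 5.13 in the Holstein animals and 3.32 to 4.89 in the Angus animals. The breeds thus overlapped, with Angus animal 1 above Holstein animals 1, 2 and 4.

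Cytokines of inflammation gave no call. IL6 (the row of this symbol on chromosome 4) rose from 0.241 to 0.629 CPM to 53.9, 71.0, 56.0 and 124 CPM in Holstein and from 0.285 to 0.949 CPM to 36.5, 26.4, 132 and 3.88 CPM in Angus. Angus animals 3 and 4 held the highest and the lowest level of all 8 cultures at 8 h, and the difference of 1.27 (standard error 0.84) had an FDR of 0.539. LIF, an IL6 family cytokine, rose from 2.99 to 3.89 CPM to 8.14 to 13.4 CPM in Holstein and stood at 0.413 to 3.03 CPM and 0.428 to 3.67 CPM in Angus. Its difference was 1.13 (standard error 0.20, FDR = 0.0566), without overlap. IL15, which sustains lymphocytes, had a difference of -0.60 (standard error 0.16, FDR = 0.143), with all Angus animals above all Holstein animals. TNF was below the filter at 0 h and 8 h, with at most 0.114 CPM. Over the list, 7 of 14 differences were above 0, against 44.6% of all genes, and the median was 0.00.

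In the list of NF-kB subunits, inhibitors and survival effectors, 14 of 18 differences were above 0, against 44.6% of all genes. In the Holstein direction, NFKBIA was past the threshold (0.0889% of all genes) and 4 were without overlap (4.06%). The median difference was 0.19, and this median rested on single animals. It was 0.11 without Angus animal 4 (11 of 18 above 0), 0.10 without Holstein animal 2 (12 of 18), 0.32 without Holstein animal 4 (15 of 18) and 0.09 without the 3 animals with the other COL1A1 counting (10 of 18). TNIP1, an adaptor that limits NF-kB together with A20, rose from 39.3 to 49.3 CPM to 192 to 304 CPM in Holstein, whereas Angus went from 24.3 to 38.2 CPM to 52.6 to 151 CPM, with a difference of 0.98 (standard error 0.23, FDR = 0.118). The differences of the apoptosis inhibitor BIRC3 (0.93, standard error 0.20, FDR = 0.0949) and of the subunit gene NFKB1 (0.59, 0.16, FDR = 0.157) had the same sign. CFLAR, which blocks caspase-8, gave 0.50 (0.14, FDR = 0.159). The rows of NFKB1 and CFLAR each overlap a LOC gene and can share its counts.

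TLR4, the LPS receptor itself, had a difference below 0 that did not pass the test. At 0 h all Angus animals but animal 3 were below the Holstein range, with 3.14, 5.58, 2.68 and 3.97 CPM in Holstein against 0.850, 0.972, 2.82 and 0.452 CPM in Angus. At 8 h the levels were 1.96, 4.90, 2.24 and 2.37 CPM in Holstein, against 1.09, 1.18, 1.57 and 0.6995 CPM in Angus. TLR4 was lower at 8 h than at 0 h in 4 of 4 Holstein animals and in 1 of 4 Angus animals, animal 3. The difference of -0.49 (standard error 0.30) had an FDR of 0.501 and neither breed changed past the limit. Among 31 genes of the receptor complex and its signalling, 20 differences were above 0 (median 0.06), against 44.6% of all genes. Of the 31, 6 were without overlap in the Holstein direction (4.06% of all genes) and none was past the threshold. Members with the lowest unadjusted P were the kinase RIPK2 (0.47, standard error 0.09, FDR = 0.0825), the co-receptor TLR6 (0.48, 0.12, FDR = 0.121), the kinase MAP3K8 (0.97, 0.26, FDR = 0.145) and the ubiquitin ligase PELI1 (0.24, 0.07, FDR = 0.146).

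Genes of class I antigen presentation had no call, but 15 of 19 differences were above 0 (median 0.28), against 44.6% of all genes. Of the 19, 8 were without overlap in the Holstein direction, against 4.06% of all genes. The median was 0.15 (14 of 19 above 0) both without Angus animal 4 and without the 3 animals with the other COL1A1 counting. PSMB9, an inducible subunit of the immunoproteasome, rose from 0.114 to 0.377 CPM to 2.64 to 3.47 CPM in Holstein, whereas Angus went from 0.525 to 0.773 CPM to 1.16 to 2.81 CPM. Its difference was 1.80 (standard error 0.40, FDR = 0.101). The peptide transporter TAP2 (0.43, standard error 0.08, FDR = 0.0678), the trimming peptidase ERAP1 (0.53, 0.11, FDR = 0.0949) and the peptide editor TAPBPL (0.57, 0.12, FDR = 0.0949) had smaller differences. Among interferon regulatory factors, STATs and SOCS genes, 18 of 24 differences were above 0 (median 0.15). Beside IRF1, the kinase JAK2 gave 0.33 (standard error 0.07, FDR = 0.0949), and STAT2, a transcription factor of interferon signalling, 0.29 (0.08, FDR = 0.152). TAPBPL overlaps VAMP1 and STAT2 overlaps IL23A.

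Secreted and surface molecules of innate immunity mostly had differences above 0, with wide errors. PTX3, a pattern-recognition pentraxin, reached 15.5, 25.5, 6.55 and 17.9 CPM at 8 h in Holstein and 0.995, 6.29, 15.8 and 0.585 CPM in Angus. All 4 Holstein animals changed more than all 4 Angus animals, and the difference was 2.73 (standard error 0.61, FDR = 0.104). The row of PTX3 overlaps VEPH1 on the opposite strand. SAA3, an acute-phase protein of the serum amyloid A family, whose members are near-identical in places, reached 13.8, 14.5, 6.22 and 12.2 CPM in Holstein, against 0.853, 4.47, 9.24 and 0.0571 CPM in Angus, from 0.0307 CPM or less at 0 h. Its change was not estimated, and the test of the difference gave an FDR of 0.518.

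Of 12 acute-phase and complement genes with an estimate, 11 had a difference above 0 (median 0.22), among them complement factor B, CFB (1.66, standard error 0.48, FDR = 0.173). All 9 rows of adhesion and immune surface genes did (median 0.61), ICAM1 being on 2 rows (0.60 and 0.04), among them VCAM1, which binds leukocyte integrins (1.27, standard error 0.45, FDR = 0.263), and CD40 (0.94, 0.31, FDR = 0.22). In neither list was a gene past the threshold, and 44.6% of all genes had a difference above 0. Some members, PTX3 among them, reached 1 CPM in fewer than 8 samples. Among rows with 1 CPM or more in at least 8 samples, 10 of 11 acute-phase and complement differences were above 0 (median 0.14). For adhesion and immune surface genes it was 7 of 7 rows (median 0.60), and for all genes 5750 of 13006. In both lists the median changes of single animals overlapped between the breeds.

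The largest negative difference among the named genes was that of HDAC9, a class II histone deacetylase. It fell from 15.6, 20.2, 13.1 and 21.7 CPM to 2.29, 2.73, 2.26 and 1.504 CPM in Holstein, whereas Angus went from 17.9, 12.7, 14.4 and 12.96 CPM to 9.01, 3.14, 4.15 and 9.76 CPM. All Holstein animals were below all Angus animals at 8 h. The log2 changes of -3.01 and -1.28 differed by -1.73 (standard error 0.37, FDR = 0.0949). HDAC5, of the same class, differed by -0.40 (standard error 0.10, FDR = 0.122), whereas HDAC4 gave 0.32 (0.17, FDR = 0.446) and HDAC6 0.08 (0.07, FDR = 0.623). Of the 6 members of the class, 2 had a difference above 0, against 44.6% of all genes.

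Cell cycle genes differed between the breeds before LPS, with a median of -0.96 at 0 h (Holstein minus Angus, log2) and of -0.84 at 8 h. The difference of the changes was above 0 for 24 of 28 rows (median 0.15, MCM4 being on 2 of them), against 44.6% of all genes. None was past the threshold. The rows come from the same 16 libraries and are not independent observations. The median log2 change over the list overlapped between the breeds, at -0.16 to 0.05 in the Holstein animals and -0.30 to -0.05 in the Angus animals. The DNA topoisomerase TOP2A went from 126, 107, 137 and 69.1 CPM to 214, 184, 174 and 115 CPM in Holstein, whereas Angus went from 458, 317, 183 and 600.0 CPM to 393, 331, 232 and 522 CPM, a difference of 0.66 (standard error 0.14, FDR = 0.0949). The proliferation marker MKI67 gave 0.61 (0.13, FDR = 0.0949), CDC20 0.61 (0.16, FDR = 0.145) and CDK1 0.51 (0.12, FDR = 0.12). The part that unequal growth of the cultures had in the other differences was not tested.

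The other lists had no gene past the threshold. Over all genes, 44.6% of differences were above 0. The share of differences above 0 was 14 of 21 for collagens and matrix (median 0.02), 9 of 12 for matrix metalloproteinases and inhibitors (0.09), 19 of 28 for AP-1, immediate-early and MAP kinase feedback genes (0.09) and 5 of 9 for RNA-decay regulators (0.06). It was 8 of 18 for antioxidant defence (-0.04), 7 of 16 for glycolysis and hypoxia (-0.04) and 5 of 11 for prostaglandin genes (-0.06). PTGS1, the constitutive cyclooxygenase, was without overlap, with a difference of 1.22 (standard error 0.28, FDR = 0.107). It went from 2.70 to 5.67 CPM to 12.2 to 26.0 CPM in Holstein, whereas Angus went from 13.6 to 59.8 CPM to 25.8 to 90.4 CPM. The manganese superoxide dismutase SOD2 (1.28, standard error 0.51, FDR = 0.312), the metallothionein MT2A (1.79, 0.52, FDR = 0.175) and the matrix protease MMP3 (2.52, 0.67, FDR = 0.146) had large differences whose breeds overlapped. Other members of these lists without overlap in the Holstein direction were ZC3H12C (0.62) and COL5A1 (0.16), and in the Angus direction ZFP36L2 (-0.38, overlapping LOC100139773), PTGES2 (-0.36) and FN1 (-0.08). The same held for GCLM, a subunit of the enzyme of glutathione synthesis (0.45, standard error 0.09, FDR = 0.0825), and of lactate dehydrogenase, LDHA (-0.32, 0.07, FDR = 0.0982), the latter in the Angus direction. DUSP6, a phosphatase of the MAP kinase ERK, was without overlap in the Holstein direction, at 0.84 (0.25, FDR = 0.186).

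The difference at 2 h, which shares the 0 h samples and is therefore not independent, is given beside that at 8 h. It was above 0 for 11 of the 12 genes with the larger change in Holstein at 8 h, the exception being LOC512486 (-0.24, standard error 0.14), and it was larger than at 8 h for 2, IRF1 and LOC100848038. NFKBIA differed by 1.46 at 2 h (standard error 0.43, FDR = 0.128) and 1.47 at 8 h, and IRF1 by 2.12 (0.50, FDR = 0.0644) and 1.33. SAMD9 differed by 0.48 (0.12, FDR = 0.0683) and 1.38, and DTX3L by 0.13 (0.15, FDR = 0.748) and 1.01. The share of all genes with a 2 h difference above 0 was not counted. Outside the 13, named genes with an 8 h difference above 0 went either way at 2 h. IL8 was at 1.72 (standard error 0.83), whereas CXCL6 was at -0.94 (0.28) and IL6 at -1.15 (1.01). The FDR at 2 h was under 0.05 for 2 of the 13 genes (2.32% of all genes), RNF213 (0.40, standard error 0.09, FDR = 0.0478) and FIBP (-0.73, 0.13, FDR = 0.0212). Whether the 2 h and 8 h differences differed from each other was not tested.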

How the data were processed

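RNA-Seq of bovine dermal fibroblasts was analysed in 16 samples (4 Holstein and 4 Angus animals at 0 h and 8 h of LPS), grouped and paired by the sample labels. The authors trimmed and filtered HiSeq1000 reads of poly-A libraries, aligned them to UMD v3.1 with NextGENe 2.3.4 and deposited raw read counts per row (unnormalized whole numbers) and the mean coverage of each row. A row is a whole gene span, introns included, or an interval without a symbol. Overlapping rows share counts, and total counts were 1.5 to 1.62 times the matched reads, so exons and strands cannot be told apart. The deposited coverage was used only for covered bases per count.

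Counts were fitted with edgeR 4.0.16 in R 4.3.3 (quasi-likelihood F test, TMM scaling, animal as a block, the breed by hour term as the difference, Benjamini-Hochberg adjustment over 21620 rows with 1 CPM or more in at least 4 of 16 samples, rows without a symbol included). The study's methods give a likelihood-ratio test and a filter of 50% of the samples. These, DESeq2 1.42.0, limma-voom (limma 3.58.1), other scalings and filters, no block, all 24 samples and leaving out animals were alternatives. The block was used because a number marks an animal: after group means were removed, 0 h and 8 h samples of the same animal correlated across genes with a mean r of 0.577 (lowest 0.486, 8 pairs), against -0.192 for different animals. With group means removed, the deviations of a group sum to 0. The negative value for different animals thus follows from the positive one for the same animal and is no separate observation. No 2 libraries of a group were duplicates: for each of the 24 pairs, chi-square of the counts over its degrees of freedom was at least 49.6. Changes per animal used log2(CPM + 0.1). A change was not estimated where a group held 3 counts or fewer in sum (5 genes). Fits were tested on simulated data.

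Named genes were up to 15 past the threshold per direction without overlap of the breeds, list members past it, up to 4 more per list by unadjusted P, and IL8, CCL5, CCL20, IL6, TNF, TLR4, SAA3, ISG15, MX2 and CX3CL1. Members and lists were chosen with earlier results of these data known. Symbols on several rows (169) are uncertain. No sequences were at hand and none is printed.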

Additional observations from a re-analysis of the deposited data

Results flagged for a closer look

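The change from 0 h to 8 h differed between the breeds, by the test of the difference itself, for the 13 genes past the threshold. The differences, Holstein minus Angus on the log2 scale, were 1.51 for CXCL2, 1.47 for NFKBIA, 1.40 for LOC512486, 1.38 for SAMD9, 1.33 for IRF1, 1.29 for LOC100848038, 1.26 for RNF213, 1.253 for SLFN11, 1.17 for PTHLH, 1.16 for IFIT1, 1.16 for PARP9, 1.01 for DTX3L and -1.13 for FIBP. Over 20 alternative fits, the FDR ranged from 1.12e-10 to 0.663 for LOC512486, from 9.66e-09 to 0.827 for CXCL2 and from 9.03e-07 to 0.238 for NFKBIA.

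Among the named genes, 176 groups of 4 animals were examined for an animal whose change lay far from those of the other 3, and 13 had one. By chance, about 1 in 20 groups would. In Angus, animal 3 stood apart in DTX3L (0.61, against 0.19 to 0.24 in the others), RIPK2 (0.69, against 0.35 to 0.39), CISH, an inhibitor of cytokine signalling (0.27, against -0.61 to -0.50), and the complement regulator CD55 (0.44, against -0.11 to -0.04). Angus animal 4 stood apart in HDAC4 (-0.36, against 0.34 to 0.42). In Holstein, animal 2 stood apart in ISG15 (4.65, against 7.29 to 7.46), LOC100848038 (3.13, against 2.44 to 2.54), CD40 (2.905, against 2.17 to 2.28), the vasodilator peptide gene ADM (1.95, against 0.72 to 0.85) and the RNA-decay factor ZFP36L1 (0.45, against 0.16 to 0.21). Holstein animal 3 stood apart in TOP2A (0.34, against 0.74 to 0.77), CDC20 (0.69, against 1.16 to 1.22) and HDAC5 (-0.93, against -1.15 to -1.13).

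Outside the genes, 7 intervals without a gene symbol were past the threshold, all with the larger change in Holstein. They are given with the other observations.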

How the results depend on the processing

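The number of genes past the threshold and its split by direction depended on the fit, while the 13 differences kept their signs. These genes were chosen for large differences and the fits share samples, so the kept signs are not separate support. Against 13 genes (12 larger in Holstein, 1 in Angus), there were 75 (64 and 11) by the likelihood-ratio test, 59 (49 and 10) by DESeq2, 40 (35 and 5) with no CPM filter, 35 (28 and 7) with all 24 samples in 1 fit, 43 (32 and 11) with the FDR limit alone, 20 (19 and 1) when scaled by total counts only and 20 (19 and 1) with symbol rows only. RLE scaling gave 13, the filter of 8 of 16 samples 14 and limma-voom 15. The shares with the larger change in Holstein were thus 12 of 13 under TMM and 19 of 20 under total counts. Without the replicate block there were 0 (0 and 0; FDR of the 13 genes 0.238 to 1), and 15 (12 and 3) without the block by the likelihood-ratio test. Since a number marks 1 animal, the fit without the pairing leaves the spread between animals in the error. Leaving out 1 animal gave 0 to 64 genes, 0 to 57 larger in Holstein and 0 to 7 in Angus, and leaving out the 3 animals with the other COL1A1 counting gave 0 (0 and 0). The cause of these shifts was not tested. The change of SAMD9 in Angus was 0.15 with all animals and ranged from -0.0072 (without Angus animal 3) to 0.28 (without Angus animal 1). Of 2037 values of single genes under an alternative, 1861 stayed on their side of the limit, 123 lost it, 52 gained it and 1 turned in sign. Most of these values belong to named genes that were not past the threshold in the main fit, so they do not measure how stable the calls were. For the 13 genes past it, the FDR was under 0.05 in 9 (CXCL2) to 13 (LOC512486, SAMD9, SLFN11 and DTX3L) of the 20 alternatives. Covered bases in place of counts, chosen after seeing the data, moved FIBP to -0.73 and left the other 12 within the spread between animals. Levels of 3 counts or fewer, such as those of CCL20 at 0 h, were not detectable at this depth.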

Other observations

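Genes with an FDR under 0.05 but a difference under 2-fold numbered 30, of which 20 changed more positively in Holstein and 10 in Angus. Some of them belonged to groups not described above, and the ones named here were chosen after their values were seen. CASP4, a caspase that binds cytosolic LPS directly, rose by 1.38 to 1.79 on the log2 scale in the 4 Holstein animals and by 0.71 to 1.07 in the 4 Angus animals, a difference of 0.68 (standard error 0.11, FDR = 0.0415). CASP8, which starts death-receptor apoptosis, differed by 0.67 (0.10, FDR = 0.0376). NUB1, which directs ubiquitin-like proteins to degradation, differed by 0.70 (0.11, FDR = 0.0413).

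Among the 10 in the other direction, NR1D1, a nuclear receptor that represses clock genes, fell in all 4 Holstein animals (by 0.52 to 0.71 on the log2 scale) and had positive values in all 4 Angus animals (0.10 to 0.58), a difference of -0.94 (standard error 0.11, FDR = 0.0191). Its row overlaps THRA on the other strand. DBP, a clock-controlled transcription factor, fell by 1.61 to 1.99 in Holstein and by 0.82 to 1.05 in Angus, a difference of -0.83 (0.13, FDR = 0.0414). TXNIP, an arrestin that restrains glucose uptake, changed by -0.25 in Holstein and 0.38 in Angus, a difference of -0.63 (0.09, FDR = 0.0335), and LOC100848155, which overlaps it, shares its counts. PMEPA1, a feedback inhibitor of TGF-beta signalling, changed by 0.82 in Angus and 0.09 in Holstein, a difference of -0.73 (0.11, FDR = 0.0404).

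The 7 intervals without a gene symbol (UMD v3.1) differed by 1.09 to 1.90. That of chromosome 28, 44927697 to 44940861, beside ZNF22, had the largest difference (1.90, standard error 0.19, FDR = 0.0122), with log2 changes of 1.77 in Holstein and -0.12 in Angus. An interval of chromosome 6, 90709881 to 90842884, overlaps CXCL2 (1.47, 0.18, FDR = 0.03), and that of chromosome 19, 15141383 to 15156481, begins where SLFN11 ends (1.36, 0.20, FDR = 0.0376). Each of the others, on chromosomes 1, 14 and 24, also adjoins a gene row, that of SST, IL7, RNF138 or STARD6.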
